A study of Mus musculus with 8 samples.

Results

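Enzymes that break down tryptophan and phenylalanine, and through that can restrain T cells, were examined as a group of 8 genes in macrophages sorted from mouse pancreas tumours. The genes are Ido1, Ido2, Tdo2, Afmid, Kmo, Kynu, Haao and Il4i1. They were found by their gene name among the non-control probes of the arrays, which gave 14 of 56605 probes, and all 8 genes had at least 1 probe. Macrophages of implanted tumours had been sorted by flow cytometry into 4 samples with high and 4 with low MHC class II, the surface complex that shows peptides to CD4 T cells, and each sample was hybridised to a 1-colour array. All 8 samples came from female mice aged 8 to 10 weeks of a strain given as FvBn, and both groups shared the implantation and the direct sort into lysis solution. The labels give no genotype for these samples and do not name the implanted cells. The series' design text speaks of normal or tumour-bearing pancreas in KPC, FLT3-CRE/LSL-YFP or wild-type mice, without tying the 8 samples to any of these. The label numbers 20435, 20436, 20439 and 20442 each occur once per group. Since no label assigns the 4 samples of a group to different animals, the p-values cover the variation among these samples alone, and that variation may be technical.

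In the kynurenine pathway, Tdo2, Ido1 and Ido2 open the indole ring of tryptophan and Afmid removes the formyl group that remains, which leaves kynurenine. Kmo then hydroxylates kynurenine, Kynu cleaves the product to an anthranilic acid, and Haao oxidises that acid on the way to quinolinic acid and NAD. Ido1 is best known in this setting as an interferon-induced enzyme of dendritic cells and myeloid cells that deprives T cells of tryptophan, while kynurenine itself can activate the aryl hydrocarbon receptor. Il4i1 is a secreted amino acid oxidase that acts mainly on phenylalanine and also on tryptophan, and is made by antigen-presenting cells.

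Signals below are log2 processed signals minus the 75th percentile of the same array, which therefore lies at 0. The groups were compared with limma over 27997 genes, each represented by its brightest probe, with p-values adjusted over all of them by the Benjamini-Hochberg method and a threshold of 0.05. The share of probes called well above background ranged from 68.5% to 74.4% over the arrays. Arrays correlated at 0.95 to 0.971 within groups and 0.908 to 0.961 between groups across genes, which are not independent replicates. The class II beta chain H2-Ab1, which checks the sort and is not a finding, lay at 5.87 to 6.29 in MHCII-high and 3.76 to 4.47 in MHCII-low. Macrophage markers were present in both groups. All 11 genes of that marker list, were tested and so were well above background on at least 4 arrays, and Adgre1 was the 1 past the threshold, at a log2 difference of -1.71 (adjusted p = 0.00462 in limma).

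The later enzymes of the kynurenine pathway and the amino acid oxidase were higher in the MHCII-high samples. No difference was detected for the enzymes that begin the pathway. Kmo, Haao and Il4i1 rose, by 5.37-fold, 2.26-fold and 2.59-fold. Kynu rose too, with a size that depends on how dim spots are treated: log2 3.57 with the processed signal, where 2 of 4 MHCII-low arrays were not well above background, and 1.61 with the normexp background correction. Tdo2, Ido1, Ido2 and Afmid did not pass the threshold, with log2 differences between -0.29 and 0.26. Of 8 genes tested, 4 were thus higher in MHCII-high and 0 lower, where 4.93% of all genes tested passed, 2.63% higher and 2.3% lower. For these 4 genes the groups did not overlap and MHCII-high was above, which held for 7.26% of all genes (14.4% in either direction). The median log2 difference was 0.72 over the 8 genes and -0.01 over all genes. All 8 had a probe that passed the filter on dim signals, which required a probe to be well above background on at least 4 of 8 arrays. For Kynu that filter was met through the MHCII-high arrays with 2 from MHCII-low, so a low Kynu level in both groups would have left it untested.

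**Figure D1:**
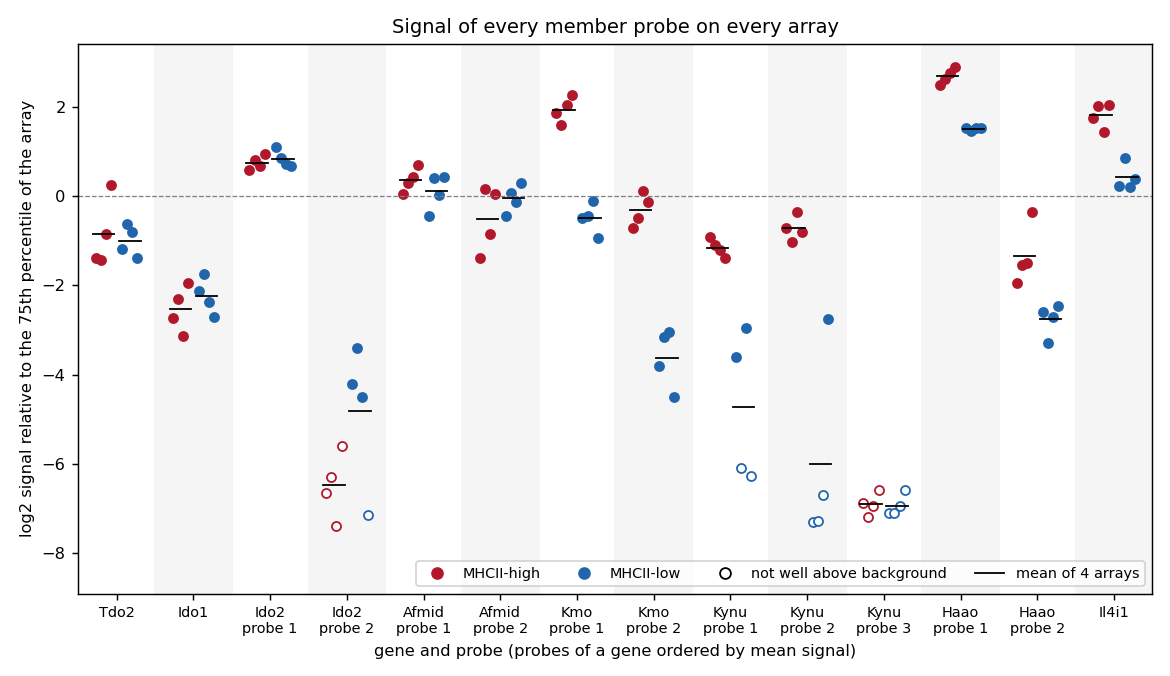
Log2 signal minus the array's 75th percentile (vertical axis) of each of the 14 probes (horizontal axis, in pathway order) on each of 4 MHCII-high and 4 MHCII-low arrays, with the group mean as a line and open circles for arrays not well above background. Both probes each of Kmo and Haao, 2 of 3 Kynu probes and the Il4i1 probe show no overlap between groups, while the probes of Tdo2, Ido1, Ido2 and Afmid overlap.

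Kmo, kynurenine monooxygenase, showed the smallest p-value of the 8 genes and was measured by a pair of probes. The brighter probe, at chr1:177590673-177590732 of mm9, read 1.85, 1.58, 2.03 and 2.25 in MHCII-high 20435, 20436, 20439 and 20442, and -0.49, -0.44, -0.12 and -0.95 in MHCII-low in the same order. Every MHCII-high array was above every MHCII-low array, the nearest being 1.70 apart. The means of 1.93 ± 0.29 and -0.50 ± 0.34 (SD, n = 4 each) differed by log2 2.43 (SE 0.22, 95% interval 1.92 to 2.93, limma adjusted p = 0.00143). The dimmer probe, at chr1:177590200-177590259, gave a wider difference of 3.32 (probe-level limma adjusted p = 0.00273), with -0.72 to 0.11 in MHCII-high and -4.50 to -3.05 in MHCII-low. Both Kmo probes were well above background on all 8 arrays. With the local background removed by the normexp method in place of the scanner's processed signal, the 2 probes gave closer values, 2.19 and 2.15. MHCII-low 20442 was the lowest of its group at both probes. Among same-numbered samples the brighter probe was higher in MHCII-high in 4 of 4 comparisons, by 2.02 to 3.20.

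Kynu, kynureninase, was higher in MHCII-high by an amount that is poorly fixed, since MHCII-low arrays were near the limit of detection. It was measured by 3 probes for different transcripts. The brightest probe, at chr2:43538117-43538176 and designed on NM_027552, read -0.92, -1.09, -1.22 and -1.40 in MHCII-high 20435, 20436, 20439 and 20442. In MHCII-low it read -3.60 and -2.95 in 20435 and 20439, well above background, and -6.09 and -6.26 in 20436 and 20442, not well above background. The groups did not overlap, and the MHCII-high arrays lay within 0.48 of each other. The difference was log2 3.57 (SE 0.73, 95% interval 1.91 to 5.22, limma adjusted p = 0.0306), and 1.61 with normexp (adjusted p = 0.000917), so its size depends on how dim signals are treated. The call was lost with the slide row as a block (adjusted p = 0.0566) and in 6 of 8 fits that left out 1 array, namely without any one MHCII-high array, MHCII-low 20436 or MHCII-low 20442, with adjusted p up to 0.0815. It was kept without MHCII-low 20435 or 20439.

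A second Kynu probe, designed on NM_001289593 and its related transcripts, reads a separate part of the gene and is printed because it detected Kynu on a different MHCII-low array than the brightest probe did.

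Kynu probe at chr2:43459748-43459807 of mm9, plus strand: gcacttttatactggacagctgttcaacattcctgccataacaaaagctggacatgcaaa

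This probe read -0.71, -1.04, -0.35 and -0.81 in MHCII-high 20435, 20436, 20439 and 20442. In MHCII-low it read -7.29, -7.28 and -6.69 in 20435, 20436 and 20439, none well above background, and -2.76 in 20442, well above background. The groups did not overlap, with a difference of log2 5.28 (probe-level limma adjusted p = 0.0181) and of 1.94 with normexp. The MHCII-low array that was high at this probe, 20442, was the lowest at the NM_027552 probe, so the transcripts were not detected on the same MHCII-low arrays. The remaining Kynu probe, designed on ENSMUST00000138540 alone, read background on 8 of 8 arrays, at -7.18 to -6.58.

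Haao, 3-hydroxyanthranilate dioxygenase, was higher in MHCII-high with little spread. Its brighter probe, at chr17:84230696-84230755, read 2.48, 2.61, 2.74 and 2.89 in MHCII-high 20435, 20436, 20439 and 20442, and 1.51, 1.46, 1.52 and 1.51 in MHCII-low. The MHCII-low arrays were within 0.06 of each other and the highest of them lay 0.96 below the lowest MHCII-high array. The difference was log2 1.18 (SE 0.14, 95% interval 0.86 to 1.49, limma adjusted p = 0.0043). A dimmer probe at chr17:84236568-84236627, designed on the cDNA clone AK171228, did not overlap between groups either and gave 1.42, but did not pass the threshold over 41179 probes (adjusted p = 0.056), of which 5.18% passed. MHCII-high 20442 was the highest array at both probes, at 2.89 and -0.37.

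Il4i1, the amino acid oxidase, was read by 1 probe at chr7:52096115-52096174. It lay at 1.74, 2.01, 1.42 and 2.03 in MHCII-high 20435, 20436, 20439 and 20442, and at 0.23, 0.85, 0.21 and 0.38 in MHCII-low. The groups did not overlap, the nearest arrays being 0.57 apart. The means of 1.80 ± 0.29 and 0.42 ± 0.30 (SD, n = 4 each) differed by log2 1.37 (SE 0.21, 95% interval 0.90 to 1.85, limma adjusted p = 0.0105). Same-numbered samples differed by 1.15 to 1.64, higher in MHCII-high in 4 of 4.

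The enzymes that open the indole ring were detected in both groups. Ido1, at chr8:25694798-25694857, read -2.73, -2.3, -3.13 and -1.94 in MHCII-high 20435, 20436, 20439 and 20442, and -2.13, -1.75, -2.37 and -2.72 in MHCII-low. All 8 arrays were well above background and the groups overlapped throughout. The log2 difference was -0.29 (SE 0.30, 95% interval -0.97 to 0.40, limma adjusted p = 0.648). Same-numbered samples differed by -0.76 to -0.55 for 20435, 20436 and 20439 and by 0.78 for 20442.

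Tdo2, the ring-opening enzyme known mainly from liver, lay at -1.40, -1.44, -0.85 and 0.25 in MHCII-high and -1.18, -0.63, -0.80 and -1.40 in MHCII-low, in the same order of label numbers. MHCII-high 20442 stood highest, and without it the difference of log2 0.14 (SE 0.38, limma adjusted p = 0.874) became -0.23. Ido2, the paralog of Ido1, was read by a bright probe whose sequence is given because a dimmer one disagreed with it.

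Ido2 probe at chr8:25644116-25644175 of mm9, minus strand: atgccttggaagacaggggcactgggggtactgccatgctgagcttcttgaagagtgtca

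The bright Ido2 probe read 0.59 to 0.93 in MHCII-high and 0.68 to 1.09 in MHCII-low, well above background on all 8 arrays, and differed by log2 -0.09 (95% interval -0.44 to 0.26, limma adjusted p = 0.803). The dimmer probe, at chr8:25642518-25642577, did not clear background in MHCII-high (0 of 4) and cleared it in 3 of 4 MHCII-low arrays, at -4.20, -3.41 and -4.49 in 20435, 20436 and 20439. The remaining MHCII-low array, 20442, read -7.14, within the MHCII-high range of -7.39 to -5.59. Against the lowest signals well above background in MHCII-high, the MHCII-low mean was 1.18-fold higher. This bound concerns the group means only, since the groups overlapped at this probe. An exact two-sided permutation test over 70 assignments gave p = 0.114, where 0.0286 is the smallest that 4 against 4 arrays allow, and the difference with normexp was -0.35.

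Afmid, the formamidase that yields kynurenine, was read by a pair of probes of opposite sign. At chr11:117700730-117700789 it lay at 0.04 to 0.70 in MHCII-high and -0.44 to 0.43 in MHCII-low, a difference of log2 0.26 (SE 0.24, limma adjusted p = 0.588). At chr11:117697751-117697810 it lay at -1.40 to 0.16 and -0.44 to 0.29, a difference of -0.46 (probe-level limma adjusted p = 0.524). The groups overlapped at both, and neither probe passed.

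**Figure D2:**
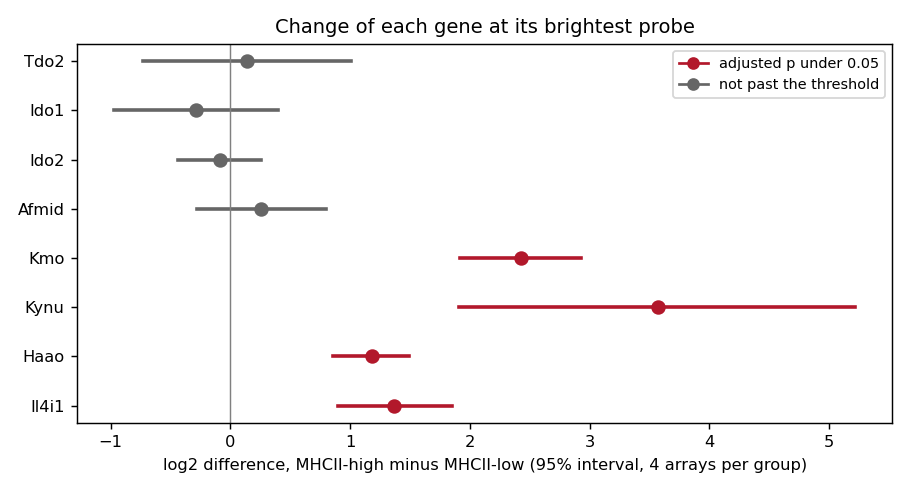
Log2 difference between MHCII-high and MHCII-low (horizontal axis) of each of the 8 genes at its brightest probe, in pathway order with Il4i1 last, with its 95% interval from limma over 4 arrays per group. Kmo, Kynu, Haao and Il4i1 lie at 1.18 to 3.57 with intervals above 0, and the intervals of Tdo2, Ido1, Ido2 and Afmid include 0.

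Markers of dendritic cells, which are MHC class II high, moved with the 4 genes that rose. Of 15 dendritic cell markers, 12 were higher in MHCII-high and 0 lower, with a median log2 difference of 2.92, where 2.63% of all genes were higher. All 15 had a higher mean in MHCII-high with an unadjusted p under 0.05 in limma. The share of all genes with such a p was not worked out, so counts of unadjusted p-values here and below have no background beside them. Near that limit, the T cell gene Cd3g had an unadjusted p of 0.0481 and an adjusted p of 0.249 in limma. The summed linear signal of the 15 markers was 81.1 to 113 times the 75th-percentile signal in MHCII-high and 23.7 to 32.7 times in MHCII-low. Dpp4 rose by log2 3.38, Cd209a by 3.04 and Ccl17 by 2.92. Other Dpp4 probes gave -0.01, well above background on 8 arrays, and 2.35, well above background on 3 arrays. Ccl22 cleared background in 4 of 4 MHCII-high and 0 of 4 MHCII-low arrays, so it met the filter only through the group where it was high. It is counted among the 12, but its MHCII-low level is a bound. All 15 were well above background on at least 4 arrays. The share of this in the differences of Kmo, Kynu, Haao and Il4i1 was not tested, and in bulk samples more cells of a type and more RNA per cell cannot be told apart.

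Macrophage markers summed to 296 to 410 in MHCII-high and 382 to 523 in MHCII-low, with a median log2 difference of -0.33. Besides Adgre1, Cd68 (-0.61), C1qc (-0.53), Mrc1 (-0.70) and Mertk (-0.51) were lower in MHCII-high, with an unadjusted p under 0.05 only. Of 7 B cell markers, 2 were higher, among them Fcrla (3.44), the median was 0.71 and the sums overlapped, at 46.1 to 56.7 and 40.8 to 63.8. Of 6 mast cell and basophil markers, 3 were higher, Kit (2.70), Fcer1a (1.66) and Tpsab1, with sums of 1.99 to 6.83 and 0.754 to 2.16. Tpsab1 cleared background in 4 of 4 MHCII-high and 0 of 4 MHCII-low arrays, so it met the filter only through MHCII-high. Of 6 monocyte markers Plac8 was higher (1.74), Ccr2 (1.26) and Chil3 (-1.58) had an unadjusted p under 0.05 only, and the median was 0.28. The sums of the 6 were lower in MHCII-high, 24.4 to 38.0 against 47.9 to 54.5. Chil3, the brightest of the list in both groups (means 3.67 and 5.25), weighs most in these sums, which do not show the direction of the list. Epithelial and acinar markers had 1 of 8 higher, Cdh1 (1.72), with sums of 7.70 to 31.5 and 18.2 to 27.7. Epcam (1.83) and Cela1 (-1.37) of that list had an unadjusted p under 0.05 only. Endothelial markers had 1 of 4 tested higher, Cldn5 (1.75), with a median of -0.29 and sums of 1.49 to 2.21 and 1.65 to 2.36. Cdh5 (-0.85), Pecam1 (-0.47) and Kdr (-0.11) of that list went the other way without passing the threshold. T and NK cell (8), neutrophil (7) and fibroblast (6) markers had 0 past the threshold in limma and sums that overlapped, at 8.28 to 13.2 against 6.99 to 14.5, 36.2 to 45.9 against 36.1 to 47.1, and 10.4 to 74.1 against 33.3 to 88.4. Among them 1 T and NK cell gene (Cd3g, log2 -1.29), 2 neutrophil genes (Ly6g, 1.30, and S100a8, -0.90) and 0 fibroblast genes had an unadjusted p under 0.05. The part of these cells in the 4 rises was not tested.

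The genes whose profiles over the 8 arrays were most like those of the 4 genes were found by the root mean square difference of profiles centred on their own mean, among genes well above background on all arrays. For Kmo these were Ppp1r16b, Rtn1 and Ctnnd2, at 0.16, 0.21 and 0.24 on the log2 scale. For Haao they were Wdfy4 (0.08), an unnamed interval probe (0.09) and Krtap21-1 (0.11). Kynu had less close neighbours, Ccdc102a, Klrb1b and Qpct, at 0.71 to 0.86. Those of Il4i1 were Arl9, 4930422I22Rik and 1700025G04Rik, at 0.19 to 0.21. A likeness over 8 arrays in 2 groups mostly restates the difference between the groups.

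Over all genes tested 4.93% passed, 2.63% higher and 2.3% lower, the share to set beside the pathway lists below. In the list of the other kynurenine branches and NAD synthesis, 1 of 11 tested genes was lower and 0 higher, with a median log2 difference of -0.03. The lower gene was Naprt, which makes NAD from nicotinic acid, at -0.69 to 0.05 in MHCII-high and 0.68 to 1.73 in MHCII-low (log2 -1.22, limma adjusted p = 0.0447). Qprt, which takes quinolinic acid into NAD synthesis, was at -0.05 (adjusted p = 0.779), and the kynurenine aminotransferase genes Kyat1 and Kyat3 at -0.33 and 0.00, none past the threshold. Aadat stayed at background on all arrays. Thus Haao rose without a detected difference in Qprt, which stands later in the same branch, though the difference between the 2 changes was not tested.

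In the other routes of tryptophan (serotonin, melatonin and tRNA charging), 1 of 10 genes was higher and 0 lower, with a median of 0.09. Inmt, an N-methyltransferase of tryptamine, rose from -3.88 to -2.65 in MHCII-low to -2.38 to -1.09 in MHCII-high (log2 1.47, limma adjusted p = 0.0463), and by 0.79 with normexp. Maoa, which oxidises serotonin, was at -1.31 (adjusted p = 0.0606) and the tryptophanyl-tRNA synthetase gene Wars1 at -0.28.

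Of 7 tested transporters of tryptophan or kynurenine, 1 was higher and 1 lower, with a median of -0.01. An unadjusted p under 0.05 in limma was seen for 6 of the 7, in both directions, with no share over all genes to set beside it. Among them were Slc7a11 (0.66), Slc7a8 (-0.59) and Slc36a4 (-0.42), not past the threshold. Slc16a10, which carries aromatic amino acids across the membrane, lay at -1.12 to 0.80 in MHCII-high and 1.47 to 2.26 in MHCII-low (log2 -1.85, limma adjusted p = 0.0339), and its other probes gave -1.71 and -0.92. Slc1a5, a glutamine carrier counted here for its exchange with the tryptophan carrier, rose by 0.67 (adjusted p = 0.031). Slc7a5, the light chain of that carrier, was at 1.01 (adjusted p = 0.0691) and Slc3a2, its heavy chain, at -0.01.

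Where 4.93% of all genes passed, the aryl hydrocarbon receptor list had 1 of 8 tested genes higher and 0 lower, with a median of 0.07. The gene was the receptor itself, Ahr, at 0.83 to 1.84 in MHCII-high and 0.05 to 0.57 in MHCII-low (log2 1.07, limma adjusted p = 0.0461), with 1.45 at another probe. Its target genes in the list were not past the threshold, with Tiparp at -0.02, Ahrr at 0.09 and Cyp1b1 at -1.96 (adjusted p = 0.417), and Cyp1a1 stayed at background on all arrays. Of 10 genes of the amino acid starvation response, 2 were lower and 0 higher, at a median of 0.02. The lower ones were Trib3, a target of the starvation response (log2 -0.99, limma adjusted p = 0.0133), and Asns, asparagine synthetase (-1.0, adjusted p = 0.0315). Chac1 (2.27) and Phgdh (0.68) went the other way, with an unadjusted p under 0.05 only. Atf4 was at 0.13 and the tryptophan-deprivation sensor Eif2ak4 at 0.04.

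For phenylalanine and tyrosine catabolism outside Il4i1, 0 of 13 tested genes passed in limma in either direction, with a median of -0.10, and Pcbd2 (-0.49) and Pts (0.59) had an unadjusted p under 0.05. Of 17 regulators of Ido1 and Il4i1, 2 were higher and 0 lower, with a median of 0.20. They were Stat2, of interferon signalling (0.69, limma adjusted p = 0.0447), and Nfkb1 (0.63, adjusted p = 0.0322), while Irf1 was at -0.04, Irf8 at 0.45 and Stat6, which carries the interleukin 4 signal, at -0.34, none past the threshold.

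Of the 9 genes of these lists that passed, all but Trib3 (limma adjusted p = 0.0133) were near the threshold, at 0.031 to 0.0463. With the slide row as a block 0 of 9 kept the call, with adjusted p of 0.0513 to 0.161, and none kept it in all 8 fits with 1 array left out. Trib3 lost it in 1 of these fits (adjusted p = 0.0502), and the other 8 genes in 6 to 8. With normexp 9 of 9 kept it.

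**Figure D3:**
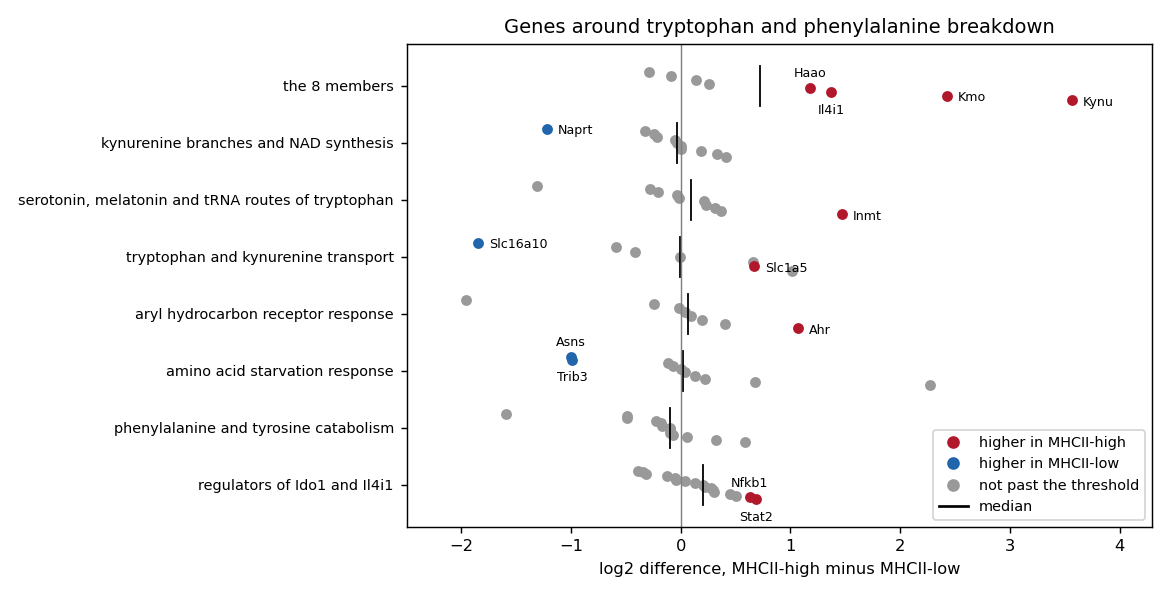
Log2 difference between MHCII-high and MHCII-low (horizontal axis) of each tested gene in the 8 members and in 7 lists of genes around them (rows), coloured by the adjusted p threshold of 0.05, with the median of each row as a line. The 4 called members lie at 1.18 to 3.57, and the medians of the 7 lists lie between -0.10 and 0.20.

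Promoter sequences from RefSeq (GRCm38.p6, 250 bases before to 50 after the start) were at hand for 5 of the 8 genes, among them 3 of the 4 that rose. They are printed for these 3, 5′ to 3′ on the strand of the gene, with matches to the motifs searched in capitals.

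Kmo promoter, chr1:175631943-175632242, plus strand: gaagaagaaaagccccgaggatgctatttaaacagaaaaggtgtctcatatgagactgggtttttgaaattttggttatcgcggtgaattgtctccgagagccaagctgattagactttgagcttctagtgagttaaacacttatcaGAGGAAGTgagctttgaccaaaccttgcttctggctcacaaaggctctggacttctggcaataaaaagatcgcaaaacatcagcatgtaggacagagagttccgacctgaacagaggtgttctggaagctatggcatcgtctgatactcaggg

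Haao promoter, chr17:83846741-83847040, minus strand: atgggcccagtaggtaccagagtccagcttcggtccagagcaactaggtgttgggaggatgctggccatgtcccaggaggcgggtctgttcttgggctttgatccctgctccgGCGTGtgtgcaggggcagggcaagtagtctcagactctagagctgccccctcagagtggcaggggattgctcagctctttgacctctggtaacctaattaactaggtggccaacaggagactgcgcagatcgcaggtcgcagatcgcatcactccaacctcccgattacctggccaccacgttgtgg

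Il4i1 promoter, chr7:44836038-44836337, plus strand: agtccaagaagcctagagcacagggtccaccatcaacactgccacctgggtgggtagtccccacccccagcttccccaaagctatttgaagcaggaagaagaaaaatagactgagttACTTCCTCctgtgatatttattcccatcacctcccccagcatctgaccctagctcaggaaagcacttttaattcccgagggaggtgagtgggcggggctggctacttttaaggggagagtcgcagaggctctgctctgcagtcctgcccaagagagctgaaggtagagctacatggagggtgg

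The motifs were searched on both strands. The core of the interferon-stimulated response element (TTTC and TTTC, 2 bases apart), the interferon gamma element (TTC and GAA, 3 bases apart) and the STAT6 element (TTC and GAA, 4 bases apart) matched none of the 5 promoters, where 3.44%, 8.3% and 6.95% of 32851 promoters hold them. The aryl hydrocarbon receptor core GCGTG, in 32.4% of promoters, matched Haao at -137 and Tdo2 at -194, in bases from the start. GAGGAAGT, the sequence type bound by the myeloid factor PU.1, was added after the promoters had been seen. It matched Kmo at -103 and Il4i1 at -133, the latter on the opposite strand, and occurs in 3.2% of promoters. These matches describe the letters of the windows only.

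Slide position was uneven, with 1 MHCII-high array beside 3 of MHCII-low in slide row 1, and the reverse in row 2. With the row as a block, Kmo differed by log2 2.46 (limma adjusted p = 0.00968), Haao by 1.15 (0.0265) and Il4i1 by 1.46 (0.0385). Within row 1 and row 2 the differences were 1.93 and 2.99 for Kmo, 3.13 and 5.07 for Kynu, 1.11 and 1.2 for Haao, and 1.57 and 1.34 for Il4i1, each resting on a single array of one group. All 3 of Kmo, Haao and Il4i1 passed in every one of the 17 alternative fits made. These fits reuse the same arrays and are not separate checks, and the authors' table nearly repeats the quantile normalization.

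**Figure D4:**
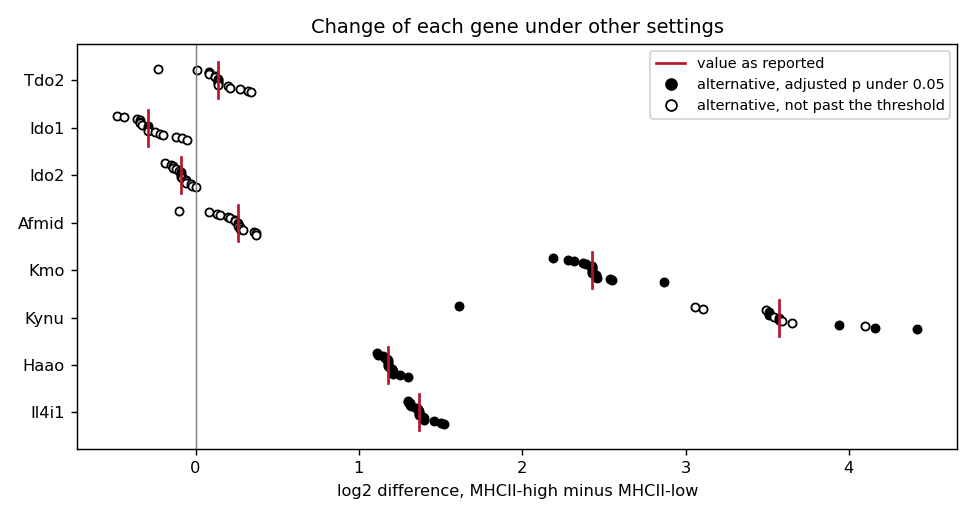
Log2 difference between MHCII-high and MHCII-low (horizontal axis) of each gene as reported (line) and under the alternative settings (points, filled where the adjusted p was under 0.05). The points of Kmo, Haao and Il4i1 are all filled, those of Kynu run from 1.61 to 4.42 with 7 of 16 open, and those of the other 4 genes are all open.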

How the data were processed

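Deposited scanner files give spot intensity (linear, 1 colour), and the headers name Agilent Feature Extraction 11.5.1.1. Its processed signal is already background-subtracted, with spatial and multiplicative detrending and surrogates for dim spots, per the file headers. The authors' deposited table holds log2 values, and how it was made is not given in the sources used here. Its array medians were 9.38137 to 9.38149, and each column followed a quantile normalization of that array's log2 processed signals (r of 0.999998 or higher across probes), which settles scale and direction and shows no centring of genes.

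Controls (3671 of 62976 spots) and outlier spots (67 to 160 per array) were left out, and spots of a probe were averaged. Signals were scaled to each array's 75th percentile. Probes needed a call well above background in 4 or more of the 8 arrays. Of 27997 genes tested, 19634 had a RefSeq symbol (GRCm38.p6, used for names and promoters). Probe coordinates are the files' own, on mm9, so exons and UTRs are not stated. The two-sided fits, without covariates, were made with limma 3.58.1 (lmFit, eBayes; R 4.3.3) and tested on simulated data. Intervals of 95% come from the moderated standard error. The number of arrays limits the precision. The 8 arrays shared 1 slide and 1 scan time.

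The 8 genes, the lists and the alternatives were chosen with earlier results of these data known. Named genes are the 8 members, up to 4 genes past the threshold per list, and the 3 genes most alike per member past the threshold. List genes named below the threshold and the 2 printed probes were chosen after their values were seen. Alternatives were normexp (offset 50), quantile or median scaling, the authors' table, no filter or a filter on all 8 arrays, the mean of a gene's probes, the label number or the slide row as a block, and each array left out in turn. A few genes of the lists are not reported here by name.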

Additional observations from a re-analysis of the deposited data

Results flagged for a closer look

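In MHCII-low, the Kynu probe designed on NM_001289593 read -2.76 in sample 20442, while the other MHCII-low arrays read -7.29 to -6.69. The gap to the nearest array was 0.867 of the range of the group, over Dixon's 95% limit for 4 samples. Of 28 groups examined over the 14 probes, 1 was past this limit, and chance gives about 1 in 20. In MHCII-low, only 20442 was well above background at that probe.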

How the results depend on the processing

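Kmo, Haao and Il4i1 kept their direction and call in 17 of 17 alternatives each, which reuse the same arrays, with log2 differences of 2.19 to 2.87, 1.11 to 1.30 and 1.30 to 1.52. Kynu kept its direction in 16 of 16 (1.61 to 4.42) and its call in 9, and had no value with the filter on all 8 arrays. Leaving out 1 array gave 3 to 4 members past the threshold. Of the genes not called, Afmid turned to -0.10 with the mean of its probes. Leaving out 1 array, Tdo2 ranged from -0.23 to 0.34 and Ido2 from -0.15 to 0. Of all genes, 1380 passed as reported, 818 with the replicate block of label numbers, 456 when the slide row was the block, and 549 to 1157 with 1 array left out. With normexp 1870 passed, and the share higher in MHCII-high was 51.4% to 53.3% over all scalings. Median scaling shifted all genes by -0.06. Same-numbered deviations from the group means correlated at 0.19, 0.13, 0.21 and 0.08, and 8 of 8 arrays correlated best with their own number, a hint of pairing from the data that the labels do not state. The lowest of these missed the 0.1 required of every pair, so the block was kept as an alternative. With the replicate block all 4 called members stayed past the threshold, and 2 of the 9 called list genes did. The serotonin list had 2 genes past it with normexp and with the filter on all 8 arrays. Without a filter, the kynurenine and NAD, serotonin and aryl hydrocarbon receptor lists had 0, and the transport and regulator lists 1. Median scaling left 1 in transport and 0 in regulators, and the mean of probes 1 in starvation and 1 in regulators. The replicate block left 1 in starvation and 0 in the serotonin, transport, receptor and regulator lists, and the slide row 0 in these lists, in starvation and in kynurenine and NAD. Leaving out 1 array gave 0 for kynurenine and NAD, 0 to 2 for starvation and 0 to 1 for serotonin, transport, receptor and regulators. The cause of these shifts was not tested. Where Kynu was not well above background, its level is a bound, which limits its fold.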
